A study of Homo sapiens with 4 samples.

Results

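The NRF2 pathway and the synthesis of glutathione (GSH) were examined in the m6A peak lists of H1975 cells, an established human lung adenocarcinoma (LUAD) cell line. MeRIP-seq had been performed in cells with lentiviral control shRNA (NC-sh) or METTL3 shRNA (METTL3-sh) for 48 h. Each condition gave 1 Input and 1 MeRIP library, 4 samples in all. METTL3 is the m6A methyltransferase, the writer that puts m6A on mRNA. A MeRIP library holds RNA fragments bound by an m6A antibody, whereas the Input holds fragments that were not pulled down. The members were 8 genes, namely NFE2L2, KEAP1, SQSTM1, GCLC, GCLM, TXNRD1, NQO1 and HMOX1. A peak was counted for a gene when its summit lay in a fixed hg19 window around that gene. By this rule 5 of 9441 NC-sh peaks and 4 of 12252 METTL3-sh peaks were members. They stood in 4 of the 8 windows, and the other 4 windows held no peak in either list. The design text of the series mentions 3 replicates per group, whereas the labels name 1 library of each kind per condition, and whether these hold pooled material is not stated. Hence the conditions were compared by their values alone, without a test and without any measure of the spread between replicates. How far the shRNA lowered METTL3 was not analysed here, and the labels do not say whether the cells were 1 clone or a pool. The identifiers of all listed peaks carry the name H1299, a different LUAD line, while the labels give H1975.

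NRF2, the protein of NFE2L2, is the transcription factor that drives the antioxidant program. KEAP1 binds NRF2 and hands it to a ubiquitin ligase for degradation, and oxidants or electrophiles disturb this hold. SQSTM1 (p62) is an autophagy receptor that can bind KEAP1 and so spare NRF2. GCLC and GCLM are the catalytic and the modifier subunit of glutamate-cysteine ligase, the rate-limiting enzyme of GSH synthesis from the cysteine that system XC- supplies as cystine. TXNRD1 reduces thioredoxin, NQO1 reduces quinones and HMOX1 degrades haem, and all 3 are known NRF2 target genes. In LUAD the pathway is known for mutations of KEAP1 and NFE2L2 that keep NRF2 active. m6A on mRNA is read by YTH proteins and can change the decay or translation of the transcript.

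Each listed peak carries the authors' pileup, fold enrichment and −log10 q. Pileup counts the MeRIP reads that cover the summit, after scaling. Dividing it by its step (0.327 in NC-sh and 0.364 in METTL3-sh) gives the number of reads. Fold enrichment is pileup over the local expectation, which the peak caller takes from the Input, with a pseudocount of 1 on both. The lowest fold enrichment was 6.0 in both lists, so a weaker peak could not be listed. The median peak had 169 reads and a fold enrichment of 10.2 in NC-sh, and 132 reads and 9.79 in METTL3-sh. Total library depth is unknown, and the intervals given here cover counting error only.

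**Figure D1:**
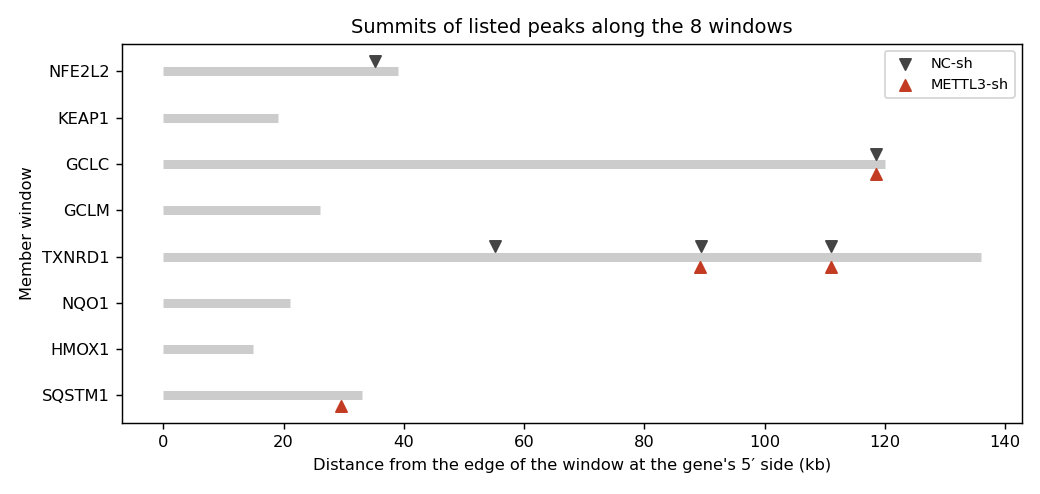
Summits of the listed peaks (triangles, dark for NC-sh and red for METTL3-sh) along the 8 windows (grey bars). The horizontal axis is the distance in kb from the edge of the window at the 5′ side of the gene. NFE2L2, GCLC and SQSTM1 each had a summit within 4 kb of the 3′ edge, TXNRD1 had summits further inside, and KEAP1, GCLM, NQO1 and HMOX1 had none. The strand of HMOX1 was not used, so its bar has no direction.

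Among the regulators of the pathway, NFE2L2 had a peak in NC-sh and none in METTL3-sh. It lay at chr2:178095695-178096372 (hg19), 678 bp long, with its summit 3.87 kb from the 3′ edge of a window of 39 kb. In NC-sh its summit was covered by 615 reads (95% Poisson CI 567 to 666), with a fold enrichment of 7.72, a local expectation of 25.2 and a −log10 q of 104. The NFE2L2 peak was thus well covered but weakly enriched for its list. Its reads were above those of 80.1% of NC-sh peaks and its local expectation above that of 90.5%, while its fold enrichment was above that of only 26.5%. Of the 2247 NC-sh peaks without a METTL3-sh peak, which had a median of 70 reads, 96.8% had fewer reads than NFE2L2. By fold enrichment NFE2L2 stood near the middle of these peaks, above 52.0% of them, whose median was 7.59. A fall of 22.3% in its fold enrichment would have put it below the lowest listed value. In METTL3-sh, 2 peak numbers were missing between the listed peaks to both sides of this place, which stood 9.38 kb and 228 kb away. Peak numbers rise with position in both lists, so a missing number is a peak that the caller had numbered and that is not in the list. Whether a METTL3-sh peak was called in NFE2L2 and then removed cannot be told from the list.

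SQSTM1 showed the opposite pattern, with a peak in METTL3-sh and none in NC-sh. The peak lay at chr5:179262508-179262810 (hg19), 303 bp long, with its summit 3.37 kb from the 3′ edge of a window of 33 kb. In METTL3-sh it had 993 reads (95% Poisson CI 932 to 1057), a fold enrichment of 7.09, a local expectation of 50.04 and a −log10 q of 173. Like the NFE2L2 peak, it had many reads and a high local expectation but a low fold enrichment. Its reads were above those of 89.9% of METTL3-sh peaks, its local expectation above that of 96.5% and its fold enrichment above that of 19.8%. A fall of 15.4% in fold enrichment would have put it below the lowest listed value. In NC-sh, 4 peak numbers were missing around this place, between listed peaks 61.4 kb and 27.9 kb away, so a numbered peak may have been removed there as well. MRNIP and MGAT4B overlap SQSTM1 in RefSeq's annotation (GRCh38.p14), but where they lie relative to the peak was not checked. The peak lists carry no strand, and the transcript that gave these reads was not assigned.

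KEAP1 had no listed peak in either library. Between the listed peaks to both sides of its window, 1 number was missing in NC-sh and 2 in METTL3-sh. Those neighbours stood 15.8 kb and 49.5 kb from the edges of the window in NC-sh and 18.1 kb and 49.5 kb in METTL3-sh, so a removed peak may have lain in the KEAP1 window or beside it.

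**Figure D2:**
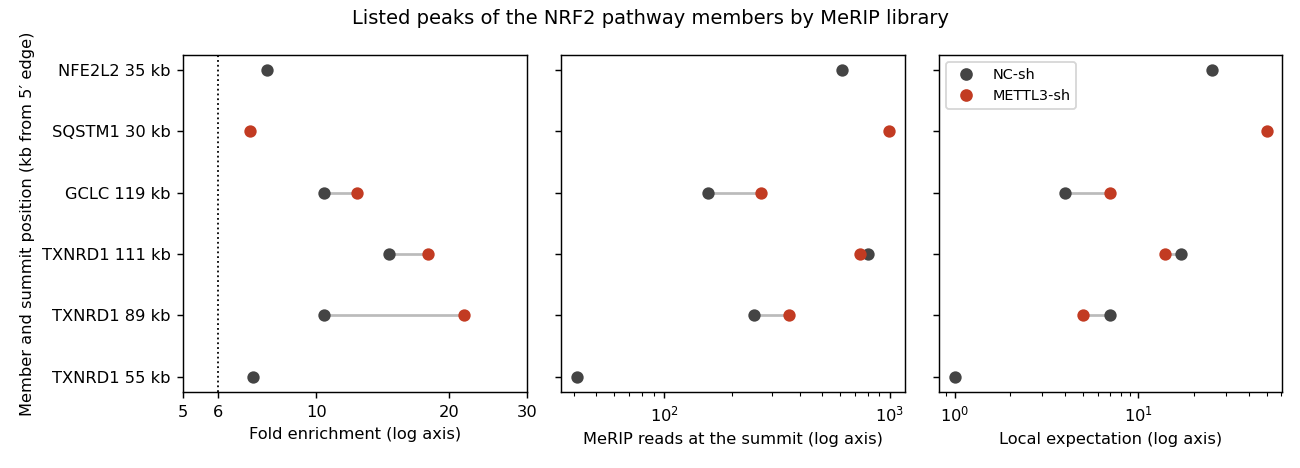
Fold enrichment, MeRIP reads at the summit and local expectation (all on log axes) of each listed member peak, in NC-sh (dark) and METTL3-sh (red), with lines joining the peaks of a pair. The dotted line marks the lowest listed fold enrichment of 6.0. The NFE2L2 and SQSTM1 peaks stand near that line despite 615 and 993 reads, while the GCLC peaks and those of TXNRD1 at 89 and 111 kb stand well above it in both libraries.

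For GSH synthesis, GCLC had 1 peak in each library at nearly the same place. The NC-sh peak lay at chr6:53363255-53363759 and the METTL3-sh peak at chr6:53363275-53363668 (hg19), with summits 17 bp apart and 1.43 kb and 1.44 kb from the 3′ edge of the window. In NC-sh GCLC had 156 reads at the summit, a fold enrichment of 10.4 and a −log10 q of 35.05. In METTL3-sh it had 270 reads, a fold enrichment of 12.4 and a −log10 q of 71.9. The GCLC peak was hence somewhat higher in METTL3-sh by fold enrichment, 1.19 times, and more so by reads, 1.73 times. The log2 ratio of reads was 0.79 (95% exact binomial CI 0.50 to 1.09), against a median of 0.13 over all pairs of peaks. The local expectation of GCLC was likewise higher with METTL3-sh, by nearly the same factor as the reads, at 7.0 against 4.0, a ratio of 1.75. Fold enrichment uses the pileup in place of the reads, which was 98.2 in METTL3-sh against 51.1 in NC-sh, and the pseudocount. The difference in expectation may lie within counting error, as described for the pairs together. No peak number was missing between GCLC and its listed neighbours in either library, so the caller numbered no further peak in its window of 120 kb. In RefSeq's GRCh38.p14 annotation GCLC spans 47.8 kb, so the window reaches well beyond it, and GCLC-AS1 overlaps the gene.

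GCLM, the modifier subunit, had no listed peak. In METTL3-sh the neighbours to both sides of its window had consecutive numbers, so no GCLM peak had been numbered there. In NC-sh 2 numbers were missing, between listed peaks 201 kb and 264 kb from the window.

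TXNRD1 held most of the member peaks, with 3 in NC-sh and 2 in METTL3-sh. Its window of 136 kb was the widest of the 8. The strongest by reads lay at chr12:104719936-104720332 in NC-sh and chr12:104719935-104720343 in METTL3-sh (hg19), 111 kb from the 5′ edge, with summits 1 bp apart. With NC-sh it had 801 reads and a fold enrichment of 14.6, and with METTL3-sh 737 reads and 17.9. Its log2 ratio of reads was -0.12 (95% exact binomial CI -0.27 to 0.03), whereas its fold enrichment was 1.23 times higher in METTL3-sh. The interval of the reads includes 0 but lies below the median of 0.13 of all pairs, and the ratio was above that of only 26.6% of them. The pileup, in which the reads are scaled, was 268 in METTL3-sh against 262 in NC-sh. The local expectation was 14.0 in METTL3-sh against 17.0 in NC-sh.

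By fold enrichment the TXNRD1 peak at 89 kb differed most of the 3 pairs, whereas by reads GCLC did. It lay at chr12:104697917-104698527 in NC-sh and chr12:104697942-104698549 in METTL3-sh (hg19), with summits 68 bp apart. Its fold enrichment of 21.7 in METTL3-sh was 2.08 times that of 10.4 in NC-sh. Reads numbered 356 in METTL3-sh against 251 in NC-sh, with a log2 ratio of 0.50 (95% exact binomial CI 0.27 to 0.74). The local expectation moved the other way, with 5.02 in METTL3-sh against 7.0 in NC-sh. More reads and a lower local expectation thus both entered the higher fold enrichment, as did the larger pileup step per read in METTL3-sh (0.364 against 0.327). EID3, a separate gene, lies within the span of TXNRD1 in RefSeq's GRCh38.p14 annotation, as do RPL18AP3 and TXNRD1-AS1 at least in part. As no annotation of hg19 was used, the peak at 89 kb was not assigned to an exon of TXNRD1 or to one of these genes.

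The third TXNRD1 peak, at chr12:104664010-104664281 (hg19) and 55 kb from the 5′ edge, was listed in NC-sh only. It had the fewest reads of the member peaks, 41 (95% Poisson CI 29.4 to 55.6), and the lowest −log10 q, 8.47. Its fold enrichment was 7.21. Its reads were below the median of 70 of NC-sh peaks without a METTL3-sh peak. A fall of 16.8% would have taken its fold enrichment below the lowest listed value. In METTL3-sh 1 peak number was missing between the listed peaks around this place.

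NQO1 and HMOX1 had no listed peak in either library. In NC-sh the listed neighbours of both windows had consecutive numbers, so no peak had been numbered in NQO1 or HMOX1. In METTL3-sh 4 numbers were missing around NQO1, where the nearest listed peaks stood 321 kb and 15.1 kb away, and 1 was missing around HMOX1. Over all members, 10 combinations of window and library were without a listed peak, and in 3 of them no number was missing. A transcript of low abundance and an abundant transcript without m6A both leave no peak. Where a number was missing, a transcript with m6A whose peak was removed as too weak would leave none either. For KEAP1, GCLM, NQO1 and HMOX1 these cannot be told apart, because the lists hold no removed peaks and no Input values outside peaks.

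**Figure D3:**
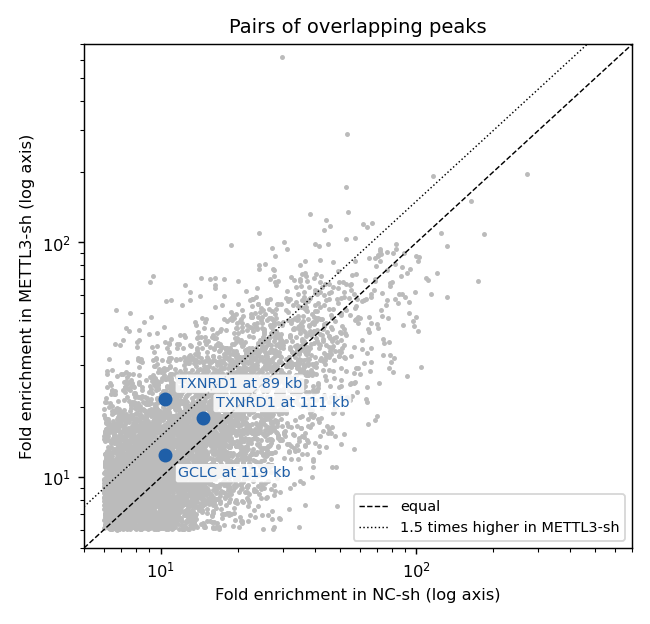
Fold enrichment in NC-sh (horizontal, log axis) and METTL3-sh (vertical, log axis) of all 6863 pairs, each made of an NC-sh and a METTL3-sh peak with no other partner (grey) and of the 3 member pairs (blue). The dashed line marks equal values and the dotted line a value 1.5 times higher in METTL3-sh. All 3 member pairs lie above the dashed line, and TXNRD1 at 89 kb lies above the dotted line.

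Set against the lists as a whole, 3 of the 5 NC-sh member peaks overlapped a METTL3-sh peak (60%, 95% Clopper-Pearson CI 14.7 to 94.7%), where 76.2% of all NC-sh peaks did. Of the 4 METTL3-sh member peaks, 3 overlapped an NC-sh peak (75%, 19.4 to 99.4%), where 58.6% of all METTL3-sh peaks did. Both intervals include the share of the whole list, but they are too wide to tell the members from it. They also treat the peaks as independent, although 3 of the 5 NC-sh peaks share the TXNRD1 window. In the 3 pairs fold enrichment was higher in METTL3-sh, as it was in 4043 of all 6863 pairs (58.9%). The median log2 ratio was 0.29 in the member pairs and 0.13 in all pairs. A fold enrichment at least 1.5 times higher in METTL3-sh was seen in 1 member pair, TXNRD1 at 89 kb, and in 22.9% of all pairs. The log2 ratio of this pair, 1.06, was above that of 91.8% of all pairs. Those of TXNRD1 at 111 kb and GCLC, 0.29 and 0.25, were above 61.0% and 58.1%, close to the middle. Both TXNRD1 pairs share a window, so the 3 pairs stand for 2 windows, and the peak at 89 kb was not assigned to a gene.

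The counting error of the local expectation is not given by the lists. In the 3 pairs, 5 of the 6 local expectations lay within 0.001 of a whole number. The exception was TXNRD1 at 89 kb in METTL3-sh, whose 5.02 is not a whole count and was rounded to 5 for the interval below. If each unit was 1 Input read, the fewest that these values allow, they rest on 4 and 7 reads for GCLC, 7 and 5 for TXNRD1 at 89 kb, and 17 and 14 for TXNRD1 at 111 kb. On that reading the 95% exact binomial interval of the log2 ratio of the expectation was -1.17 to 3.03 for GCLC, -2.48 to 1.39 for TXNRD1 at 89 kb and -1.41 to 0.83 for TXNRD1 at 111 kb. Each of these intervals, the widest that the values allow, included 0 and also 0.20, the median log2 ratio of the expectation over all pairs. The expectation was higher in METTL3-sh in 62.2% of all pairs, and among the member pairs in GCLC alone. For the reads of GCLC and of TXNRD1 at 89 kb, the intervals lay above the median log2 ratio of 0.13 of all pairs. Their ratios of reads were above those of 92.8% and 81.0% of all pairs. How many of all pairs have an interval that leaves out this median was not counted, so the intervals do not set these pairs apart from the list. The interval of the unscaled reads of TXNRD1 at 111 kb ended at 0.03, below the same median, although it included 0. The pileup of this pair was slightly higher in METTL3-sh. The variation between libraries was not measured.

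**Figure D4:**
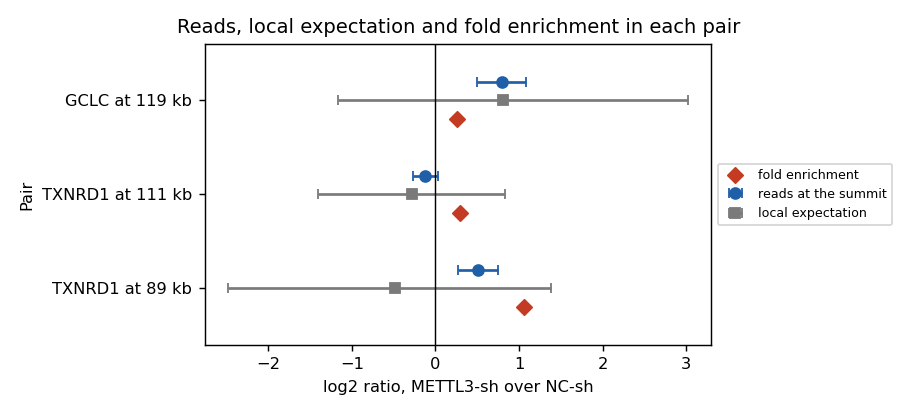
Values of METTL3-sh relative to NC-sh as log2 ratios (horizontal) for each of the 3 member pairs, for reads at the summit (circles, 95% exact binomial interval), local expectation (squares, 95% interval if each unit was 1 Input read) and fold enrichment (diamonds). Reads lie above 0 with their interval for GCLC and for TXNRD1 at 89 kb, and each interval of the local expectation includes 0. Reads are not scaled between the libraries, whereas fold enrichment is set against the Input of the same condition.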

How the data were processed

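MeRIP-seq peaks of 2 MeRIP libraries (NC-sh and METTL3-sh) were used. No values of the 2 Input libraries were analysed here beyond those that enter the peaks. Per the labels, the submitters' processing notes name bcl2fastq, TopHat2 2.0.13, MACS2 2.1.0.20151222 and hg19, and the authors deposited a separate list for each library. In these lists the authors gave pileup as a scaled read coverage signal, fold enrichment as the ratio of that signal to the local expectation, and each peak's significance as −log10 p and −log10 q. As no listed fold enrichment was below 6.0 and peak numbers were missing, weaker peaks had been removed before deposit.

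Members were peaks with a summit in the hg19 windows, in kb, of NFE2L2 (2, 178092 to 178131), KEAP1 (19, 10596 to 10615), GCLC (6, 53362 to 53482), GCLM (1, 94350 to 94376), TXNRD1 (12, 104609 to 104745), NQO1 (16, 69740 to 69761), HMOX1 (22, 35776 to 35791) and SQSTM1 (5, 179233 to 179266). All listed member peaks were named. The members and lists were chosen with earlier results of these data known. Reads were pileup divided by its step, and 100% of pileups up to 400 were whole steps within 0.006. Peaks overlapping by at least 1 bp were shared, and a pair was 2 peaks that each overlapped only the other. The steps were tested on simulated data. Strand (except for HMOX1) and overlapping genes were taken from RefSeq GRCh38.p14, with no position converted. Other NRF2 target genes and peak sequences were not analysed here, because no hg19 annotation or genome was used. The reading of local expectation as Input reads was chosen after seeing the data. Python 3.11.15, numpy 2.4.6, pandas 2.3.3, scipy 1.17.1 and matplotlib 3.10.9 were used.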

Additional observations from a re-analysis of the deposited data

How the results depend on the processing

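The counts of member peaks, their overlap between the lists and the direction and median of the 3 pairs were recomputed under 10 alternatives. Those that changed only the measure were applied to the pairs alone, and those that changed only the overlap were not applied to the counts. Of the 40 values so obtained, 35 were labelled the same. That label allowed small shifts, such as the loss of 1 METTL3-sh member peak, so with so few peaks it is a weak check. With a fold enrichment of at least 10, NC-sh held 3 member peaks in place of 5, and METTL3-sh 3 in place of 4, since NFE2L2, TXNRD1 at 55 kb and SQSTM1 fall below that value, and the 3 left in each list all overlapped. With a −log10 q of at least 20, NC-sh held 4, without TXNRD1 at 55 kb. When reads were compared instead of fold enrichment, 1 pair and not 0 was lower in METTL3-sh, TXNRD1 at 111 kb, and the median log2 ratio of the pairs was 0.50 instead of 0.29. Pileup as deposited gave 0.66, a measure whose unit per read differs between the libraries by 0.15 (log2). With −log10 q as the measure the median was 1.04, and the cause was not tested. No paired analysis was possible because the conditions hold a single MeRIP library each and were not tested. Depth limits the TXNRD1 peak at 55 kb most, with 41 reads.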
